A study of Mus musculus with 52 samples.

Results

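The series measured RNA in 52 primary mouse osteosarcomas, bone tumours whose malignant cells lay down bone matrix, and 16 of these libraries carry a column name that starts with FM, FNM, WFM or WFNM. All 16 columns with those prefixes were taken, and they are the subject here. The sample labels place the FM and FNM tumours in the p53fl/fl group, with a pair of floxed Trp53 alleles, and the WFM and WFNM tumours in the p53R172H/fl group, with 1 floxed allele and 1 allele coding the R172H form of p53. The sources used here do not give what M and NM stand for, which promoter drove recombination, or the age and sex of the mice, so the libraries are called M-prefixed (FM and WFM) and NM-prefixed (FNM and WFNM). There were 5 FM, 3 FNM, 4 WFM and 4 WFNM libraries, or 9 M-prefixed against 7 NM-prefixed. Each library has its own tumour number, which follows the prefix in the names below. The labels do not say whether the tumours came from separate mice, so p-values measure the spread between these tumours. All 16 column names carry the same lane, L001.

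p53, encoded by Trp53, is a transcription factor that halts or kills damaged cells, and its loss in bone-forming cells is a common route to osteosarcoma in mice and people. A bulk tumour library also holds RNA of the cells around the malignant ones, such as marrow cells, macrophages, vessels and adjoining muscle. In such libraries fewer cells of a type and less RNA per cell cannot be told apart. The question the prefixes allow is whether tumours of the same genotype differ in RNA between the M and NM prefixes. It was asked over both genotypes at once, with genotype as a covariate, and then within each genotype.

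Total counts ran from 43752411 to 60336397 per library, and the M and NM ranges overlapped (43752411 to 60336397 against 45084335 to 58650111). Trp53 followed the genotype labels and not the prefixes. In CPM (read counts scaled to TMM library sizes), it read 15.5, 17, 17.5, 20.5 and 10.8 in FM and 14.2, 18.9 and 18.8 in FNM libraries. In the p53R172H/fl tumours it read 38, 39.3, 43.8 and 31.8 in WFM and 40.6, 34.1, 34.8 and 35 in WFNM libraries. Every p53R172H/fl library thus lay above every p53fl/fl library, while the M and NM values overlapped within both genotypes. The log2 fold change of M over NM was -0.0025 (SE 0.14, 95% interval -0.30 to 0.30). A two-sided exact permutation test of log2 CPM within genotypes gave p = 0.9 over 3920 arrangements, where the smallest possible was 0.000255. FNM 562 (Xist 14.1 and Ddx3y 20.2 CPM) and FM 1427 (9.71 and 89.5) held both Xist, an RNA of female cells, and the Y-linked Ddx3y. Both RNAs exceeded 5 log2 CPM in 3 other libraries (FM 1512, WFM 627 and FNM 1522), and the call below is also given without these 3. On the first principal component, which held 17.6% of the variance, FM 1512 lay apart from the rest.

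Rap1gap was the only gene that edgeR called between M and NM tumours in the test over both genotypes. edgeR's quasi-likelihood test, with Benjamini-Hochberg adjustment over 19873 genes, called 1 gene at an adjusted p under 0.05 (0.00503% of those tested), lower in M, and 0 genes higher. Rap1gap encodes a GTPase-activating protein that switches off Rap1, a small GTPase that turns on integrin adhesion and strengthens cell junctions. Rap1 is loaded with GTP by exchange factors and returned to its GDP state by proteins such as RAP1GAP.

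The FM libraries 1427, 1431, 1512, 1606 and 1640 held Rap1gap (ENSMUSG00000041351.16) at 28.3, 29.1, 19.9, 18.9 and 27.9 CPM. The FNM libraries 562, 1522 and 1979 held 50.1, 51.8 and 75.8 CPM. In the other genotype, the WFM libraries 621, 622, 627 and 1383 held 16.2, 18.2, 16.4 and 25.7 CPM. The WFNM libraries 383, 847, 865 and 5798 held 50.3, 36.1, 38.5 and 61.4 CPM. All 9 M-prefixed libraries lay below all 7 NM-prefixed ones, with the highest M at 29.1 and the lowest NM at 36.1. Group means were 24.8 ± 5.0 (SD, n = 5) and 59.2 ± 14.4 (n = 3) CPM in FM and FNM, and 19.1 ± 4.5 (n = 4) and 46.6 ± 11.7 (n = 4) in WFM and WFNM. The log2 fold change of M over NM was -1.27 (SE 0.17, 95% interval -1.62 to -0.91, edgeR adjusted p = 0.0191), which is 2.41-fold lower in M.

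**Figure D1:**
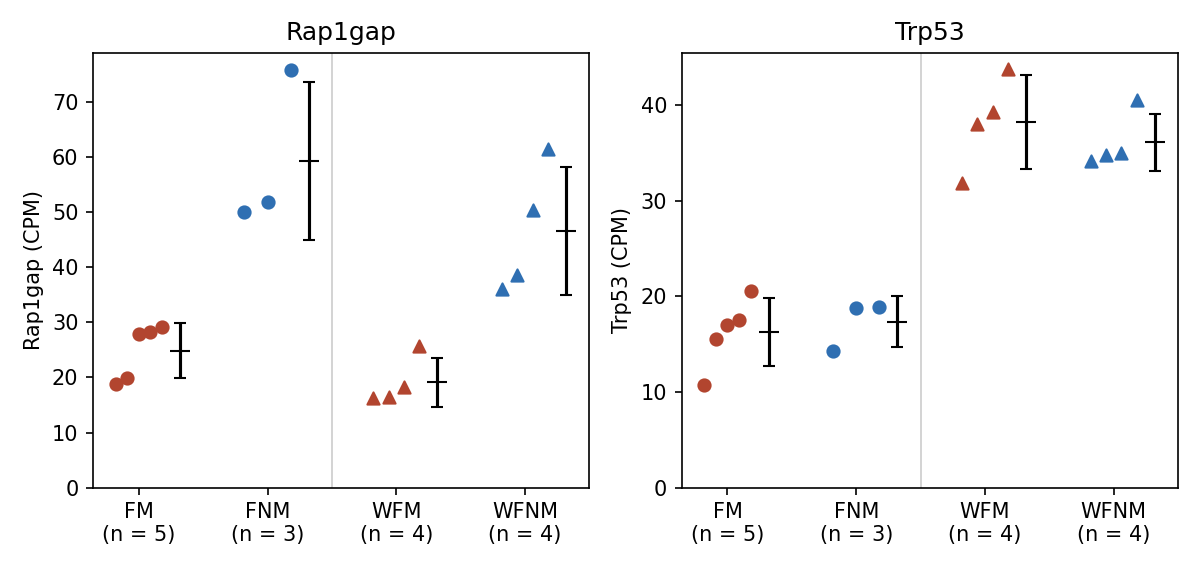
Rap1gap (left) and Trp53 (right) in CPM, with 1 point per library by prefix, M prefixes in red and NM prefixes in blue, circles for p53fl/fl and triangles for p53R172H/fl; crossbars give mean and SD. The 9 M-prefixed libraries sit at or below 29.1 CPM of Rap1gap and the 7 NM-prefixed at or above 36.1, whereas Trp53 separates the genotypes.

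Rap1gap had a similar difference in the 2 genotypes. It was -1.25 (SE 0.24) for FM over FNM and -1.28 (SE 0.25) for WFM over WFNM, on the log2 scale. Neither was called by edgeR on its own (adjusted p = 0.705 and 0.9998), although Rap1gap had the smallest unadjusted p in both (0.000112 and 9.4e-05). DESeq2 called Rap1gap within each genotype (adjusted p 0.0085 and 0.0032). The difference between these 2 effects was -0.03 (95% interval -0.77 to 0.71, edgeR adjusted p = 0.997). Rap1gap was picked by its p over both genotypes in these same libraries, so the values within each genotype are not separate support.

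The size of the Rap1gap difference was steadier than its call. Leaving out each library in turn gave log2 fold changes of -1.35 to -1.18, with edgeR adjusted p from 0.0145 to 0.114, and 9 of 16 such fits kept the call. It was lost without FM 1512 (0.0536), FNM 1979 (0.114), WFM 621 (0.0786), WFM 622 (0.0785), WFM 627 (0.0796), WFNM 383 (0.0638) or WFNM 5798 (0.0538). Without the 3 libraries that held both Xist and Ddx3y the log2 fold change was -1.24 and the edgeR adjusted p 0.449.

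Markers of other cells and of RNA quality were read beside Rap1gap. The summed level of 23 skeletal muscle markers ranged from 122 to 51875 CPM in M (median 598) and from 955 to 11852 in NM (median 3395). With the muscle score as a covariate Rap1gap was -1.20 (SE 0.18, edgeR adjusted p = 0.132). The share of counts at provisional (TEC) and sense intronic loci was 0.292 to 0.379% in WFM against 0.222 to 0.299% in WFNM libraries, and 0.293 to 0.456% against 0.318 to 0.529% in FM and FNM. With that share as a covariate Rap1gap was -1.23 (SE 0.17, adjusted p = 0.0501), just past the threshold.

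Rap1gap lies on chromosome 4 from 137664726 to 137729861 (GRCm38, plus strand). Of 11 other genes tested within 500 kb on either side, 0 were called and 0 had an unadjusted p under 0.05. Over all genes these shares were 0.00503% and 3.47%, so the counts do not set the neighbours apart from other genes. The log2 fold changes of the 11 ran from -0.63 to 0.47. Usp48, which ends upstream of Rap1gap, stood at -0.16 (SE 0.15). Alpl, the alkaline phosphatase of bone-forming cells on the other side, stood at -0.08 (SE 0.38). Hspg2, which encodes the basement membrane proteoglycan perlecan, stood at -0.27 (SE 0.30). These genes were looked up after Rap1gap had been seen.

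The other proteins of the Rap1 cycle were also read after Rap1gap was seen, as 24 genes with Rap1gap among them. Their median log2 fold change was -0.05, beside 0.01 over all genes tested. Of the 24, 1 was called, Rap1gap itself, beside 0.00503% of all genes. The list was built around Rap1gap, so that call was known beforehand. An unadjusted p under 0.05 was held by 1 gene higher and 2 lower in M, Rap1gap among them, beside 3.47% of all genes. The GTPases stood at 0.16 (Rap1a, 95% interval -0.21 to 0.52) and 0.19 (Rap1b, -0.29 to 0.68). Of the other activating proteins, Rap1gap2 stood at 0.08, Sipa1 at -0.10, Sipa1l1 at -0.11, Sipa1l2 at -0.16 and Sipa1l3 at 0.02, none of them called. Among exchange factors, Rapgef1 to Rapgef6 lay between -0.08 and 0.16. Rasgrp2, a calcium-regulated exchange factor of platelets, stood at 1.40 (SE 0.53, unadjusted p 0.017) with M libraries at 4.35 to 65.5 CPM and NM libraries at 3.22 to 21.8. Rassf5, an effector that carries active Rap1 to integrins in lymphocytes, stood at -0.53 (SE 0.24, unadjusted p 0.043). Neither passed the adjusted threshold.

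The other 36 libraries of the series carry no M or NM prefix, and their Rap1gap is given for its range only. Scaled over all 52 libraries, they ran from 0.259 to 66.2 CPM with a median of 23.3. Of the 36, 23 lay at or below the highest M-prefixed library, 2 between the groups, and 11 at or above the lowest NM-prefixed library. Levels on both sides of the gap were thus present outside the 16. The labels do not tie these libraries to the 16 tumours, so none was assigned a prefix.

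Besides Rap1gap, M against NM left little in the table. An unadjusted p under 0.05 was held by 689 genes, 328 higher and 361 lower in M, which is 3.47% of those tested. Genotype, compared in the same 16 libraries, gave 2182 (11%) at that level and 64 called genes (0.322%; 40 higher, or 0.201%, and 24 lower, or 0.121%, in p53R172H/fl). The number of genotype calls also depended strongly on the fit, as given in the closing section on processing. Only 2 genes had M and NM groups that did not overlap (0.0101%), against 81 for genotype (0.408%). One was Rap1gap and the other Zdhhc7, a protein palmitoyltransferase, lower in M by a log2 fold change of -0.37 (unadjusted p 0.0053, not called). The median SE of a log2 fold change was 0.33 for M against NM, 0.47 for FM against FNM and 0.46 for WFM against WFNM.

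**Figure D2:**
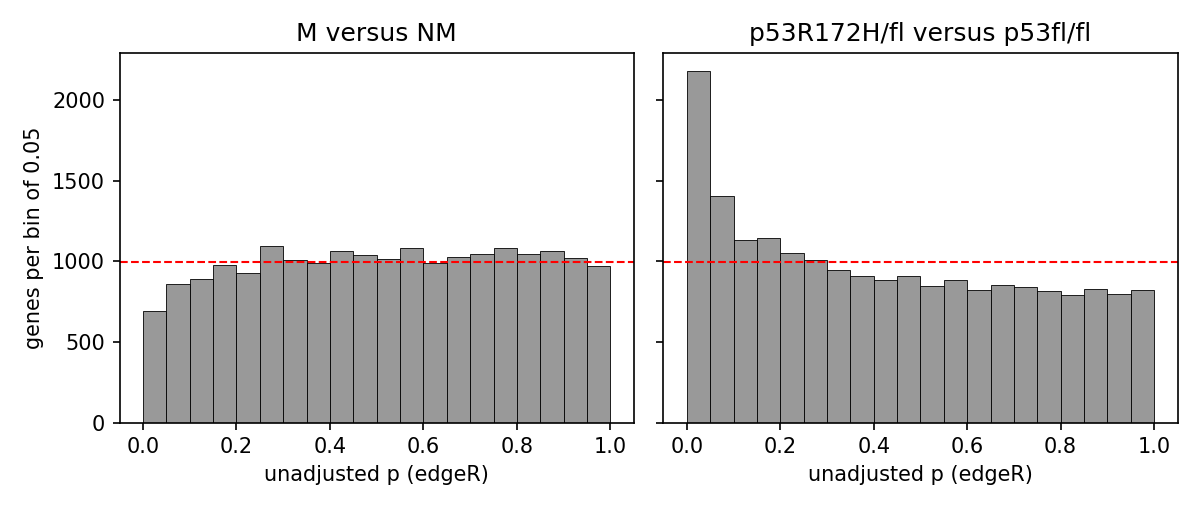
Number of genes (vertical axis) in each 0.05-wide bin of unadjusted edgeR p (horizontal axis) for M against NM (left) and genotype (right) in the same 16 libraries; the dashed red line is an even spread. The first bin holds 689 genes for M against NM and 2182 for genotype.

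Some uncalled genes came next in order of p, and they are given as values. Of those higher in M, Lcn2 (lipocalin 2, an iron-siderophore carrier of neutrophils) stood at 3.79 on the log2 scale (SE 0.95) and Ltf (lactoferrin, of neutrophil granules) at 5.15 (SE 1.45). Col24a1, a fibrillar collagen found in forming bone, stood at 1.31 (SE 0.34). Its M libraries ranged from 109 to 396 CPM with a median of 181, and its NM libraries from 36 to 138 with a median of 61.5. Slc39a10, a zinc importer, stood at 0.61 (SE 0.15), Zfp945 at 0.68 (SE 0.18) and the glycosyltransferase gene B3gnt5 at 2.85 (SE 0.80). The ranges of M and NM overlapped for each of these genes, and every edgeR adjusted p was 0.997.

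Of the uncalled genes lower in M, the phosphatase gene Mdp1 stood at -0.98 (SE 0.25). It was below its NM counterparts within both genotypes, at 7.70 to 15.3 CPM in FM against 20.3 to 30.7 in FNM and 11.7 to 13.2 in WFM against 13.9 to 45.6 in WFNM. Mdp1, Zdhhc7 and Rap1gap were the 3 genes with no overlap in the same direction within both genotypes (0.0151%). Sh3pxd2a, which encodes TKS5, a scaffold of the invasive protrusions called podosomes and invadopodia, stood at -0.72 (SE 0.20). Its M libraries ranged from 319 to 533 CPM and its NM libraries from 434 to 1103, so the groups overlapped. Kcns1, a potassium channel subunit, stood at -3.72 (SE 0.98), Calhm2, a channel of the calcium homeostasis modulator family, at -0.58 (SE 0.16), and Spon2, a secreted matrix protein, at -3.09 (SE 0.87). The edgeR adjusted p of each was 0.997. DESeq2 called 7 genes (0.0352%) on the same counts, among them Rap1gap (adjusted p 4.5e-08), Lcn2 (0.0053), Ltf (0.020) and Kcns1 (0.031). The other 3 it called were Hemgn, a nuclear protein of blood progenitors, Gm15482 and Gm17619, which lie outside the naming rule and were picked out after their values were seen.

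**Figure D3:**
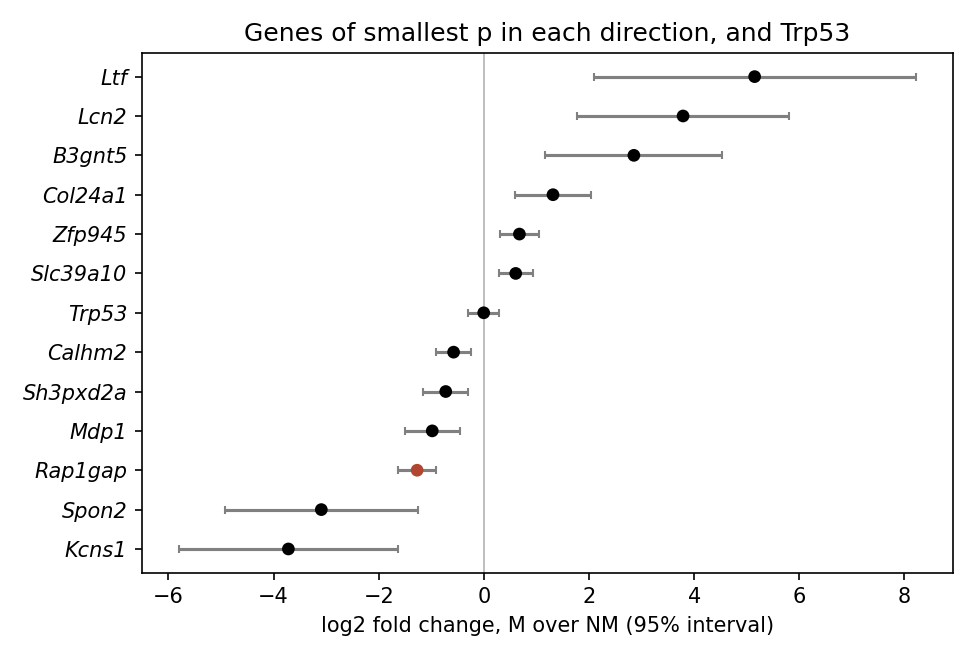
Log2 fold change of M over NM with its 95% interval (horizontal axis) for Trp53 and for the genes of smallest p in each direction (vertical axis), with the called gene in red. Rap1gap, at -1.27, is the only one called by edgeR. Ltf, Lcn2, Kcns1 and Spon2 have larger fold changes with wider intervals.

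Neutrophil genes had the largest median difference of the 39 lists read, and 3 M-prefixed tumours held the highest levels. Of 12 neutrophil genes tested, 11 were higher in M and 0 were called by edgeR. An unadjusted p under 0.05 was held by 10 of the 12, all higher in M, beside 3.47% of all genes in either direction. The median log2 fold change of the list was 3.30, beside 0.01 over all genes, with 3.65 in p53fl/fl and 2.93 in p53R172H/fl. Ltf read 11.1, 46.5, 0.0824, 0.973 and 0.248 CPM in FM 1427, 1431, 1512, 1606 and 1640, and 0.240, 0.125 and 0.229 in FNM 562, 1522 and 1979. It read 40.004, 0.139, 0.287 and 3.13 in WFM 621, 622, 627 and 1383, and 0.104, 0.809, 0.763 and 0.178 in WFNM 383, 847, 865 and 5798. FM 1427, FM 1431 and WFM 621 were thus high. Of the other M-prefixed libraries, WFM 1383 and FM 1606 also lay above every NM library, by less, and the remaining ones lay at or below the highest NM value.

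The same 3 libraries were highest in Lcn2, with 14.8 CPM in FM 1427, 24.9 in FM 1431 and 15.6 in WFM 621, against 0.368 to 3.96 in the other M libraries and 0.0988 to 0.883 in NM. Elane, the neutrophil elastase of early granulocytes, read 0.886, 8.59 and 6.15 CPM in them and at most 0.161 in any other library. The summed level of the list ranged from 7.94 to 322 CPM in M (median 22.97) and from 10.5 to 20.7 in NM (median 16.5). Csf3r, the receptor for the granulocyte growth factor G-CSF, was the member that was not higher, at -0.08 (SE 0.42). Without the 3 libraries the median of the list was 0.45. By list score red cell genes were also high there, with mean log2 deviations of 1.17, 2.78 and 1.92 in FM 1427, FM 1431 and WFM 621. WFNM 865 also reached 1.22. The summed level of the red cell list was instead highest in a WFNM library, at 522 CPM, against at most 399 in M. All 11 erythroid genes had positive values for M over NM (median 0.36), as did 10235 of all 19873 genes, and 0 of the 11 were called. Slc4a1, the red cell anion exchanger, read 8.29, 39.98 and 7.98 CPM in the 3 libraries and at most 2.47 in the rest. The B and plasma cell list stood at 0.76 and was highest in FM 1431.

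**Figure D4:**
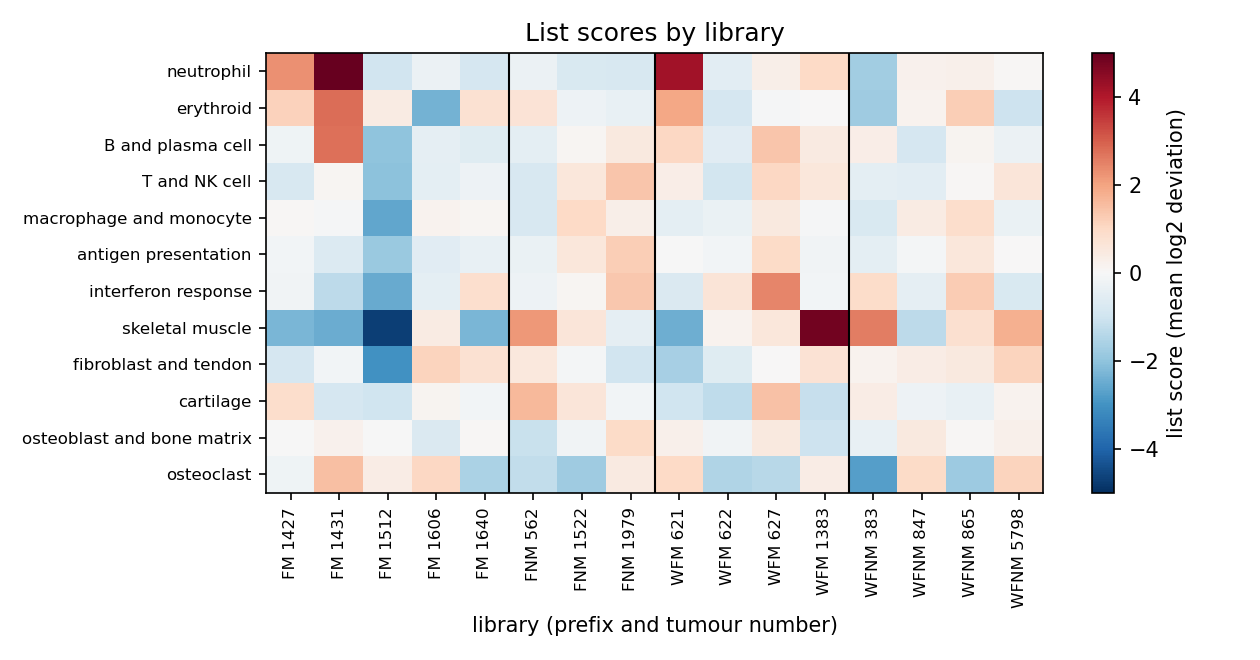
Score of 12 cell type and immune lists (rows) in each of the 16 libraries (columns, by prefix), as the mean over the list's genes of the deviation of log2 CPM from the gene's median over the 16 libraries; red is above and blue below, and black lines part the prefixes. The neutrophil row is high in FM 1431 (5.06), WFM 621 (4.2) and FM 1427 (2.29), and the skeletal muscle row runs from -4.71 in FM 1512 to 4.82 in WFM 1383.

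Skeletal muscle RNA also varied by library. The 23 skeletal muscle genes were all lower in M over both genotypes (median -0.60), where 10235 of all 19873 genes were higher. Yet the muscle median was -2.52 for FM over FNM and 1.34 for WFM over WFNM. None was called in any of these comparisons, and 8 had an unadjusted p under 0.05 in p53fl/fl, where 5.46% of all genes had one. Myh4, the fast myosin heavy chain, read 2.85 to 27.7 CPM in FM and 38 to 514 in FNM, whereas WFM read 13.6 to 3369 and WFNM 25.1 to 606. The high WFM value came from WFM 1383, and the median over both genotypes was -1.94 without it. Without FNM 562 the median was 0.07.

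Genes for antigen presentation were lower in FM than FNM by value and near 0 in the other genotype. These genes load peptides on major histocompatibility complex (MHC) proteins for T cells to read. The median of 18 genes was -1.05 for FM over FNM, with 9 at an unadjusted p under 0.05, where 5.46% of all genes had one. It was 0.16 for WFM over WFNM, with 0 such genes, and edgeR called 0 of the 18 in either or for the difference between them. FNM 1979 had the highest score (1.22), FNM 562 (-0.325) lay within the FM range, and the median over both genotypes went from -0.43 to -0.06 without FNM 1979. H2-DMa, a subunit of the chaperone that loads MHC class II, read 19.0, 8.15, 2.08, 11.2 and 11 CPM in FM and 75.3, 42.3 and 28.8 in FNM. In the other genotype it read 15.6, 10.5, 16.7 and 11 in WFM and 10.8, 10.8, 20.4 and 14 in WFNM. The FM and FNM values of H2-DMa did not overlap, as was so for 2.93% of all genes, while WFM and WFNM overlapped. Its log2 fold change was -2.24 (SE 0.48, edgeR adjusted p = 0.705) within p53fl/fl. DESeq2 called it there (adjusted p 0.017) and called H2-DMb2 (-3.65, adjusted p 0.0068). The partner subunit H2-DMb1 stood at -1.60 (SE 0.52).

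Interferon-response genes and T and NK cell genes also had medians of opposite sign in the 2 genotypes, with 0 members called by edgeR in either or for the difference. For the 26 interferon genes the median was -0.88 for FM over FNM, where 2 had an unadjusted p under 0.05, and 0.54 for WFM over WFNM, where 0 had one. For 19 T and NK cell genes it was -1.15, with 2 such genes, and 0.46, with 1. Of all genes, 5.46% had one for FM over FNM and 3.25% for WFM over WFNM. The SD of the list score between libraries of 1 prefix was 1.14 for interferon and 0.852 for T and NK cell genes. Cxcl9, a chemokine that draws T cells, read 2.11 to 8.41 CPM in FM and 5.67 to 48.8 in FNM, against 5.05 to 33.8 in WFM and 3.66 to 19.8 in WFNM. Il18bp, a secreted inhibitor of interleukin 18, had a difference between the 2 effects of 1.83 (unadjusted p 0.00042, edgeR adjusted p = 0.930, DESeq2 0.020). The guanylate-binding protein gene Gbp8 had one of 4.27 (edgeR adjusted p = 0.930, DESeq2 0.013). T and NK cell RNA was low throughout, at a summed 8.98 to 28.2 CPM in M and 10.9 to 60.6 in NM, and 9 of its 19 genes were at 0 in at least 1 library. Macrophage genes stood at a median of -0.42 over both genotypes. They were lowest in FM 1512, with a score of -2.58 where the other FM libraries lay between -0.05 and 0.19. FM 1512 also had the lowest antigen presentation score (-1.85). How far these cell type levels enter the MHC values was not tested.

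**Figure D5:**
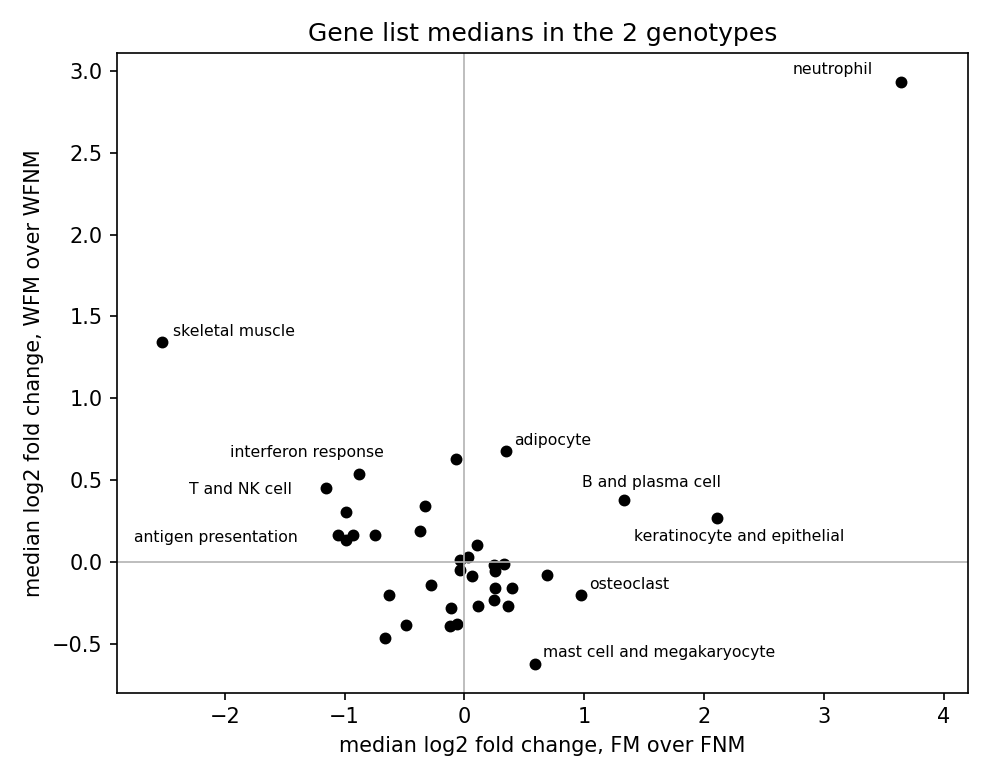
Median log2 fold change of each cell type or function list for FM over FNM (horizontal axis) and WFM over WFNM (vertical axis), 1 point per list. Neutrophil genes are positive in both (3.65 and 2.93), while skeletal muscle (-2.52 and 1.34), T and NK cell, interferon and antigen presentation lists lie on opposite sides of 0.

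Across the whole table the prefix fold changes of the 2 genotypes were nearly uncorrelated. Of 19873 genes, 48.2% had the same sign in p53fl/fl and p53R172H/fl. The 2 sets of fold changes, which share no library, had a Pearson r of -0.07 and a Spearman rho of -0.08 across genes, which are not independent replicates. The median absolute log2 fold change was 0.34 in p53fl/fl and 0.27 in p53R172H/fl, below the median SE of 0.47 and 0.46. With differences of that size, these values cannot show whether prefix effects were shared. An unadjusted p under 0.05 in both genotypes was held by 57 genes, 21 with the same sign and 36 with opposite signs. FM against FNM called 0 genes with edgeR (0%; 1085, or 5.46%, at an unadjusted p under 0.05) and 35 of 19873 with DESeq2. WFM against WFNM called 0 (0%; 646, or 3.25%, unadjusted) and 23 of 19873. The difference between the effects called 0 (0%; 1068, or 5.37%, unadjusted) and 24 of 19873. Some DESeq2 calls had extreme log2 fold changes. Slc25a21 stood at 20.5 for FM over FNM (edgeR unadjusted p 0.045) and Gm18562 at -22.1 for WFM over WFNM (edgeR unadjusted p 0.019).

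Within p53fl/fl, the metabolic kinase Pdk1, which holds pyruvate back from mitochondria, read 40.3, 79.8, 46.5, 115 and 126 CPM in FM and 19.7, 27.1 and 28 in FNM. These groups did not overlap, as was so for 2.93% of all genes, and Pdk1 was picked for its small p in this comparison. Its log2 fold change was 1.71 (SE 0.42, edgeR adjusted p = 0.705, DESeq2 0.031). WFM over WFNM gave -0.37 (SE 0.38). Steap3, an endosomal iron reductase, behaved alike by value, with 1.67 (SE 0.41) and -0.38 (SE 0.37). DESeq2 called Steap3 for FM over FNM (adjusted p 0.031), while edgeR did not. Ubiquitin ligase genes Dcun1d4 (a cullin neddylation factor) and Cul4b (a cullin scaffold) stood at 1.42 and 0.88, and the phosphatase gene Ppm1l at 3.46. Each was higher in all FM than all FNM libraries, and each was likewise picked by its p. None was called by edgeR, while DESeq2 called each (adjusted p 0.0085, 0.030 and 0.0085, in that order).

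Several large differences within a genotype came from 1 tumour. FNM 562 held Trpm5, a taste cell channel, at 58.5 CPM, where the other 15 libraries lay at or below 0.299. It held Misp, an actin-bundling spindle protein, at 36.9 CPM and Igf2, an imprinted fetal growth factor, at 2846 CPM. The next Igf2 value was 211, in WFNM 383. Without FNM 562, the log2 fold change of Trpm5 for FM over FNM went from -7.58 to -0.998, that of Misp from -7.15 to -0.43, and that of Igf2 for M over NM from -4.75 to -1.62. Hoxa13, a patterning factor of the distal limb, was likewise at 7.22 CPM in FNM 562 and at most 2.42 elsewhere.

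WFNM 383 held Tnfrsf11b, which encodes osteoprotegerin, the decoy receptor that restrains osteoclasts, at 1079 CPM against 11.2 to 193 in the other 15. Its value for WFM over WFNM went from -3.79 to -1.54 without that library. With that library kept, DESeq2 called Tnfrsf11b (adjusted p 0.018), while edgeR did not. In the same comparison Igf2bp3, a fetal RNA-binding protein, read 6.35, 37.1, 17.9 and 0.486 CPM in WFM and 0.599, 0.0385, 0.964 and 0.0593 in WFNM. The groups overlapped through WFM 1383, and the value was 5.21 (SE 1.33, edgeR adjusted p = 0.9998, DESeq2 0.0028). Isl2, a homeobox factor, read 1.06 to 6.01 CPM in WFM and 0.0790 to 0.251 in WFNM, with no overlap (2.1% of all genes had none). DESeq2 called Isl2 (adjusted p 0.0056), while edgeR did not. The clock gene Per3 read 12.4 to 20.2 CPM in WFM and 26.1 to 49.2 in WFNM, at -1.14 (SE 0.31), and was not called.

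No gene of the bone and tumour lists was called by edgeR for M over NM. Of 22 osteoblast and bone matrix genes 9 were higher in M, with a median of -0.12, and 4 had an unadjusted p under 0.05 (2 higher and 2 lower), beside 3.47% of all genes. Besides Col24a1, Bglap2, an osteocalcin gene of mature osteoblasts, stood at -3.08 (SE 1.14). Its levels ranged from 3.56 to 138 CPM in M and from 4.56 to 1143 in NM, and reads may be split with its near-identical neighbour Bglap. Mepe, a matrix protein of osteocytes, stood at 3.29 (SE 1.33) and was highest in FM 1512 (126 CPM) and WFM 622 (51.4). Osteoclast genes were positive for 13 of 14 (median 0.34), where 10235 of all 19873 genes were. The osteoclast median was 0.97 in p53fl/fl and -0.20 in p53R172H/fl, with 0 called. The SD of this list's score between libraries of 1 prefix was 1.42. Cartilage genes had a median of -0.59, and Col9a1, a collagen of cartilage, stood at -2.24 (SE 0.93).

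Targets of p53 had a median of 0.04 over 34 genes, of which 0 had an unadjusted p under 0.05. Of 30 genes altered in osteosarcoma 3 had one, all higher in M, beside 3.47% of all genes in either direction. Among the 3 were Pdgfra, a growth factor receptor of mesenchymal cells, at 0.97 (SE 0.39) and the chromatin remodeller Atrx at 0.33 (SE 0.16). In WFM 622 Pdgfra reached 2192 CPM. None was called. Of 27 genes tied in the literature to the spread of osteosarcoma 0 had an unadjusted p under 0.05, with a median of -0.06 and values from -1.70 to 1.36. Matrix proteases and their inhibitors had a median of -0.03 over 30 genes, and 1 had an unadjusted p under 0.05. It was Mmp14, a membrane protease that activates other collagen-degrading enzymes, at -0.56 (SE 0.24). Mesenchymal and invasion genes had a median of -0.03, mitotic genes -0.07 and replication genes 0.03, with 0 at an unadjusted p under 0.05 in any of these 3 lists. Oxidative phosphorylation genes were higher in M for 21 of 24 (median 0.17) and cholesterol synthesis genes for 4 of 22 (median -0.18), with 0 called in either. Of all 19873 genes, 10235 were higher in M.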

How the data were processed

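RNA of primary mouse osteosarcomas was sequenced as stranded paired mRNA libraries, per the labels. The authors deposited raw read counts per gene, without normalization, aligned with STAR to GRCm38 per the submitters' processing notes. No source used here gives the counting program or its annotation. The 16 columns named FM, FNM, WFM or WFNM were used, with totals of 43752411 to 60336397 counts; the other 36 were used for Rap1gap levels and 1 alternative. Genotype came from the sample labels and M or NM from the column names. Of 20730 identifiers, 20668 matched GENCODE M21, 62 had no symbol and 14 shared one. Counting did not state the use of strand, so overlapping and antisense genes are uncertain.

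edgeR 4.0.16 (R 4.3.3) fitted genotype and M on genes kept by filterByExpr (minimum count 10), 19873 in all, with TMM scaling and the robust quasi-likelihood test. A fit with 1 coefficient per prefix gave the effects within genotypes and their difference. Genes were called at an adjusted p (Benjamini-Hochberg) under 0.05. SE was taken as |log2 fold change| divided by the root of the F value. Log2 CPM used a prior count of 2. A list score is the mean, over its genes, of the deviation of log2 CPM from the gene's median over the 16 libraries.

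The fit was tested on simulated data. The members and the 39 lists (745 entries, 722 in the table) were chosen with earlier results of these data known. Named genes were the called genes and, where fewer than 10 were called, the 6 of smallest p in each direction (mean of at least 1 CPM, medians at least 0.5 log2 units apart), with up to 2 members per list. Named outside that rule, after their values were seen, were Zdhhc7, Xist and Ddx3y in single libraries, Hemgn, Gm15482, Gm17619, Csf3r, Usp48, Alpl, Hspg2 and the Rap1 genes. Some genes the rule names are left out for length. Alternatives were RLE factors, DESeq2 1.42.0, limma 3.58.1 voom with quality weights, no filter, a minimum count of 50, all 52 libraries, 3 covariates (intronic share, muscle score, sex index), no genotype covariate and each library left out.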

Additional observations from a re-analysis of the deposited data

Results flagged for a closer look

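Within each group of 4 or 5 libraries of 1 prefix, single libraries far from the others were sought in log2 CPM of the genes of smallest p and in list scores. Of 156 groups tested 17 held such a library, where chance alone marks about 1 in 20 groups. Among genes, in log2 CPM with the nearest library of the same prefix in brackets, Trp53 was high in WFNM 383 at 5.34 (5.13), and so was Mdp1 at 5.51 (3.9). Calhm2 was low in the same library at 4.23 (4.62), Slc39a10 in WFNM 5798 at 5.43 (5.8), Sh3pxd2a in WFNM 865 at 9.05 (9.56) and Kcns1 in WFM 622 at -4.74 (-1.56).

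FM 1512 was low in the scores for macrophages (-2.58), matrix proteases (-1.17) and immune checkpoints (-2). WFNM 383 was low in the neutrophil score (-1.74) and high in the Hedgehog score (1.06). WFM 627 was high in the cartilage (1.46) and antigen presentation (0.947) scores. Single scores also stood out for osteoblast genes in FM 1606 (-0.719), angiogenesis and hypoxia in FM 1640 (0.856), mitosis in WFM 622 (0.772) and IGF and receptor kinases in WFM 1383 (0.589). Rap1gap held no such library in any of the groups tested.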

How the results depend on the processing

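Rap1gap kept its direction in all 28 alternatives, which gave log2 fold changes of -1.35 to -1.18, and was called in 14. Besides the fits named above, it was not called with a sex index (adjusted p 0.066), with no genotype covariate (0.0748), with all 52 libraries (adjusted p 0.99996, SE 0.61) or without FM 1427, FM 1431 and WFM 621 (0.291). It had the smallest p in each fit of this contrast except that of all 52 libraries, where it ranked 600. The count of M against NM calls was 7 with DESeq2 (5 higher, 2 lower) and 0 with all 52 libraries, each of the 3 covariates, no genotype covariate, and without either set of 3 libraries; it was 0 to 1 with each library left out. DESeq2 gave 35 in p53fl/fl, 23 in p53R172H/fl and 24 for their difference. Genotype calls, 64, became 444 with DESeq2, 126 with all 52 libraries and 0 with the intronic share. They became 4 without the 3 libraries above 5 log2 CPM in both Xist and Ddx3y. Without FM 1427, FM 1431 and WFM 621 they became 0, and with each library left out 24 to 77. The cause of these shifts was not tested.

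Trp53, at -0.0025, turned to 0.0021 with voom, 0.0053 at a minimum count of 50, 0.0012 with the sex index and 0.0029 without FM 1427, FM 1431 and WFM 621, and ranged from -0.044 to 0.056 with each library left out. Other uncalled genes that changed sign were Il11 (0.10) and Ddx3y (-0.85) with voom and Des (0.13) with the muscle score. Myh4 (0.49) did so with no genotype covariate. Vsir (0.025) and Ddx3y (-5.32) did so without the 3 libraries above 5 log2 CPM in both Xist and Ddx3y. Zbtb46 (-0.018) and Slc4a1 (-0.10) did so without FM 1427, FM 1431 and WFM 621. With each library left out, Col9a2 ranged from -3.70 to 0.13, Des from -1.80 to 0.074 and Il11 from -2.94 to 0.34 (each above 0 without FNM 562). Cxcl9 ranged from -0.91 to 0.036 (above 0 without FNM 1979) and Ddx3y from -2.97 (without WFM 627) to 2.80. No paired analysis was possible because the M and NM libraries share no tumour numbers. Sets without libraries, and the Rap1 genes, were chosen after seeing the data.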
